A study of Mus musculus with 2 samples.

Results

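The early growth response (EGR) transcription factors Egr1, Egr2, Egr3 and Egr4 and their NAB corepressors Nab1 and Nab2 were followed in mouse HT22 cells exposed to the neurotrophic compound J147 for 1 h. The members were all probe sets annotated to these 6 genes, 10 of the 45037 probe sets on the array that are not controls. RNA came from HT22 cells given J147 and from HT22 cells given only the solvent DMSO, the vehicle control, each for 1 h and each hybridized to 1 Affymetrix GeneChip that covers the mouse transcriptome. HT22 is an immortalized mouse line of hippocampal origin. Both cultures were plated overnight in medium with fetal calf serum before the addition of J147 or vehicle. The study's methods give the J147 concentration in the micromolar range, whereas the sample labels state 10 mM. The title of the control sample names DMSO vehicle, whereas its treatment label reads untreated. With 1 array for each condition there is no replicate error, no p-value is given, and an effect of J147 and other differences between the cultures cannot be told apart.

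EGR proteins are zinc finger transcription factors that bind GC-rich elements in DNA. Their genes are immediate early genes, which are switched on within minutes of growth factor, neurotrophin or synaptic stimulation, largely through ERK kinases acting on the serum response factor SRF and its ternary complex partners. NAB1 and NAB2 bind to a repression domain that EGR1, EGR2 and EGR3 share and EGR4 lacks, and they recruit chromatin remodelling and histone deacetylase complexes. Nab2 is itself transcribed in response to EGR proteins, so that it forms a feedback loop. In the brain, Egr1 and Egr3 are studied for their part in synaptic plasticity and memory.

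The authors deposited log2 intensities from gcRMA, a method that corrects the background of each probe by its base composition. The lowest value of the table was 2.234, and 46.0% of probe sets on the J147 array and 46.3% on the vehicle array lay within 0.01 of it. A gene at this value may still be transcribed, and levels of different probe sets cannot be ranked against each other because probes differ in their affinity. After scaling of the arrays so that their median intensity was 100, the lowest value became 95.1 on the J147 array and 95.4 on the vehicle array. The 22545 probe sets with a mean scaled intensity above 100 were scored, and the SD of their log2 differences (J147 minus vehicle) was 0.18. The scaling shifts every log2 difference by -0.0046, so a probe set with identical deposited values shows a fold of 0.997. Only 2 of 8 neuronal markers, Tubb3 and Syp, had a probe set above the lowest value, against 7 of 7 fibroblast, 2 of 7 astrocyte, 1 of 4 oligodendrocyte and Schwann cell and 2 of 6 microglia markers. The median log2 difference was 0.13 for hybridization spikes, -0.15 for labelling spikes and -0.63 for 18S rRNA, and the part of these shifts in the differences below was not tested.

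Egr3 and Egr1 were higher in J147-treated cells, and Egr2 and Nab2 differed by less. Nab1 was nearly level between the arrays, and Egr4 was listed at the lowest value in both conditions. Of the 10 probe sets, 7 were scored, with intensities above 100 on both arrays. At least 2-fold higher intensity with J147 was found for 2 of these 7, compared with 0.0754% of all scored probe sets, and 0 of 7 were at least 2-fold lower, compared with 0.071%. The same 2 of 7 passed when the limit was set at 1.5-fold, beside 0.856% of all scored probe sets, and 0 of 7 were lower by that limit, beside 0.781%. Reading each gene from its brightest probe set, 2 of 5 scored genes were at least 2-fold higher, against 0.066% of 10611 scored genes.

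**Figure D1:**
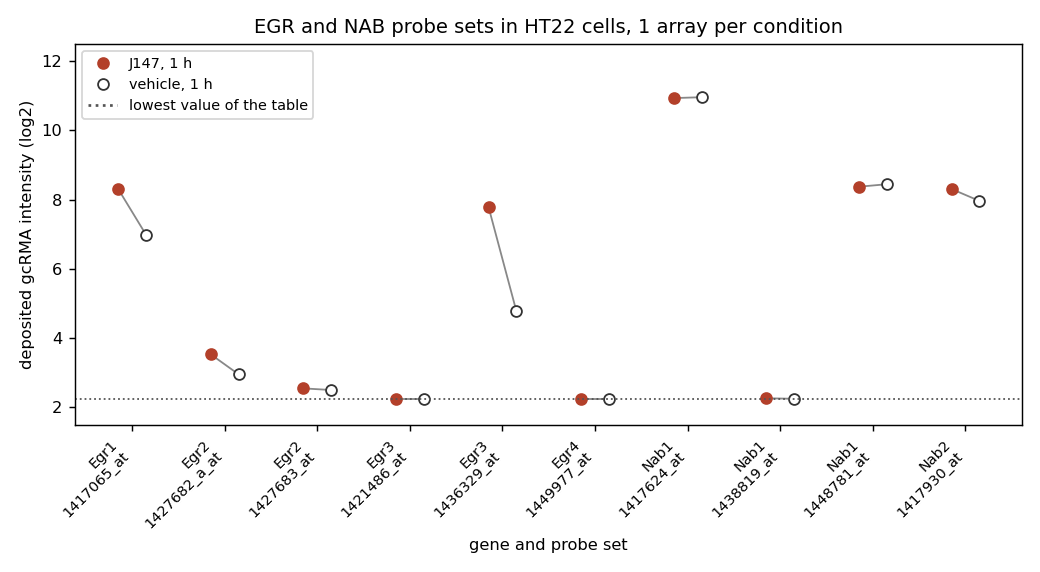
Log2 intensities as deposited (vertical axis) for the 10 EGR and NAB probe sets (horizontal axis) in J147-treated cells (filled circles) and vehicle-treated cells (open circles), 1 array each, with a grey line joining the values of a probe set and a dotted line at the lowest value of the table, 2.234. The steepest lines belong to Egr3 probe set 1436329_at and Egr1 probe set 1417065_at, while Egr4 and the other Egr3 probe set lie on the dotted line on both arrays.

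Egr3 encodes an EGR factor needed for muscle spindle development and studied in hippocampal memory. Its probe set 1436329_at had a deposited log2 intensity of 7.78 in J147-treated cells and 4.78 in vehicle-treated cells. On the scaled intensity this was 4452 with J147 and 558 with vehicle, a fold of 7.98. Both values were clear of the lowest one in the table, by 5.55 log2 units with J147 and by 2.55 with vehicle, so that the fold does not rest on a value at the floor. The log2 differences of the 500 scored probe sets closest to it in mean level ran from -1.38 to 0.88, with an SD of 0.22, against 2.997 for this Egr3 probe set. Its difference was the largest in either direction over all scored probe sets.

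The other Egr3 probe set, 1421486_at, which is annotated to the RefSeq mRNA of the gene, was listed at 2.234 on both arrays. The probe sets of Egr3 therefore gave different answers, and 1436329_at has no accession in the annotation used. A silent probe set beside a bright one was common on this array. Of 5319 genes with 2 or more probe sets whose brightest was at least at the mean level of 1436329_at, 1753 (33.0%) had another at the lowest value with J147 and with vehicle. This share is not matched to Egr3, which has 2 probe sets, because genes with more have more chances of a silent one. Among the 13 genes with any probe set at least 2-fold higher with J147, 11 had 2 or more probe sets. In 1 of these 11 a second probe set also passed 2-fold, the nucleoside transporter gene Slc29a2, and in 4 of them, Egr3 included, a probe set lay at the lowest value with J147 and with vehicle.

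Egr1 encodes the founding member of the family, also called Zif268 or Krox-24, a widely used marker of neuronal activity. Its only probe set, 1417065_at, had a log2 intensity of 8.31 in J147-treated cells and 6.99 in vehicle-treated cells. The scaled intensity was 6414 with J147 and 2580 with vehicle, a fold of 2.49 and a log2 difference of 1.31. Without the compound Egr1 already lay 4.76 log2 units above the lowest value. Its 500 neighbours in level all differed by less in either direction, their log2 differences running from -0.83 to 0.75 with an SD of 0.19. Over all scored probe sets it ranked 5 by rise and 7 by the size of the difference, and among genes it ranked 2 by rise, directly after Egr3.

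Egr2, known as Krox-20, is required for hindbrain patterning and for myelination by Schwann cells. Both of its probe sets derive from the same mRNA record and both lay near the lowest value. Probe set 1427682_a_at had a log2 intensity of 3.53 with J147 and 2.95 with vehicle. This gave a scaled intensity of 233 in J147-treated cells and 157 in vehicle-treated cells, a fold of 1.49. The vehicle value was only 0.72 log2 units above the lowest value. A difference of this size or more was found in 10 of its 500 neighbours in level, of which 7 were higher with J147. The second probe set, 1427683_at, had scaled intensities of 118 with J147 and 115 with vehicle, a fold of 1.03, and 159 of its 500 neighbours differed by at least as much. The probe sets of Egr2 thus gave folds of 1.49 and 1.03, and all 4 values lay within 1.30 log2 units of the lowest one.

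The DNA before the transcript starts of Egr2 is shown because it holds elements of the kind that join immediate early genes to serum and growth factor signals. Promoter sequences were taken from the RefSeq annotation of GRCm38.p6, as the 250 bases upstream of each transcript start, and windows were on hand for 4 of the 6 genes, Egr2, Egr4, Nab1 and Nab2. Of 5 windows of Egr2, which overlap in part, 4 contained a CArG box, the site bound by SRF. Overlapping windows hold the same CCATATATGG site, so these are not 4 separate boxes. Capitals mark the CArG box, the ETS-type sequence CCGGAA bound by ternary complex partners of SRF, and the cyclic AMP response element half-site TGACG, each on either strand.
Egr2 chr10:67537316-67537565, plus strand: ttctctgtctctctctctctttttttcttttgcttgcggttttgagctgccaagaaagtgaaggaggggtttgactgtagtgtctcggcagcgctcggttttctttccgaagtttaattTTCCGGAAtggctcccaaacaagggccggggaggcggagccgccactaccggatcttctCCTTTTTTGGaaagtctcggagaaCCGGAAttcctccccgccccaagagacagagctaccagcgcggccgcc
Egr2 chr10:67537619-67537868, plus strand: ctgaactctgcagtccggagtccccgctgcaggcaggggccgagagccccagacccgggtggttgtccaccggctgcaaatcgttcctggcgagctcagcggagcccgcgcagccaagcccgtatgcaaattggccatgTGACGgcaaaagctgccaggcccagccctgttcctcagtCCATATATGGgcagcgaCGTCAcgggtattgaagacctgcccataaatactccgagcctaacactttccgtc
In the first of these windows the CArG box was CCTTTTTTGG, from -72 to -63 counted from the transcript start, with CCGGAA on the plus strand from -48 to -43 and a pair of overlapping CCGGAA matches on opposite strands from -131 to -124. In the second, the CArG box was CCATATATGG, also from -72 to -63, with TGACG from -111 to -107 and its reverse complement from -55 to -51. A CArG box was found in 1.47% of the 32851 mouse promoter windows of this length, CCGGAA in 12% and TGACG in 17.8%. A match to letters does not show that a factor was bound in these cells.

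Egr4, also called NGFI-C, is mainly known from the nervous system and the germline. Its single probe set, 1449977_at, was listed at 2.234 on the J147 array and at 2.234 on the vehicle array. A change in a probe set at that value could not be detected. The promoter window of Egr4 is given for comparison with that of Egr2, with the TGACG half-sites in capitals.
Egr4 chr6:85513590-85513839, minus strand: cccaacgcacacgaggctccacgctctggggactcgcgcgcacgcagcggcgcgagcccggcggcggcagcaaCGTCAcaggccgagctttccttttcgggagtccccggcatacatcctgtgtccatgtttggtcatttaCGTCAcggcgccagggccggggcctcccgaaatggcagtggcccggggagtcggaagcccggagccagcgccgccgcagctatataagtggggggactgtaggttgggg
It held 2 half-sites, both as the reverse complement, from -177 to -173 and from -109 to -105, and no CArG box in this window. Half-sites of this kind were also present in the second Egr2 window shown, but not in the first. They are not particular to these genes, since TGACG also occurred in the Nab1 window and in 17.8% of the 32851 windows.

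Nab2 encodes the NAB corepressor whose transcription is inducible. It was measured by 1 probe set, 1417930_at, at a log2 intensity of 8.31 with J147 and 7.96 with vehicle. Its scaled intensity was 6406 in J147-treated cells and 5067 in vehicle-treated cells, a fold of 1.26 and a log2 difference of 0.34. Of its 500 neighbours in level, 30 differed by at least this much in either direction and 12 were at least as much higher with J147. Differences of this size thus also occurred in other probe sets of similar level. It ranked 211 by rise among 10611 genes.

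Nab1, the constitutively expressed corepressor, was bright and nearly identical on both arrays. Probe set 1417624_at had a log2 intensity of 10.9 with J147 and 11.0 with vehicle, and a scaled intensity of 39613 in J147-treated cells and 40464 in vehicle-treated cells, a fold of 0.979. Probe set 1448781_at had 6712 with J147 and 7079 with vehicle, a fold of 0.948. The third, 1438819_at, lay 0.027 log2 units above the lowest value with J147 and 0.012 with vehicle, and it was not scored. For the 2 scored probe sets, 358 and 276 of 500 neighbours differed by at least as much. The inducible and the constitutive corepressor thus had folds of 1.26 and, by the brightest Nab1 probe set, 0.979.

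The promoter windows of the corepressors are shown because EGR proteins are reported to act on Nab2. Capitals mark the EGR-type sequence GCGNGGGCG and the TGACG half-site on either strand.
Nab1 chr1:52500449-52500698, minus strand: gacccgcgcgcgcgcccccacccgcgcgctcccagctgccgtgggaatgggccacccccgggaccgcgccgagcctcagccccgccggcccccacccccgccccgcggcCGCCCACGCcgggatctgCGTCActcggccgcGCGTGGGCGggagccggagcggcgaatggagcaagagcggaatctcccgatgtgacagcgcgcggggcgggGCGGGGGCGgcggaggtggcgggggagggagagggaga
Nab2 chr10:127666704-127666953, minus strand: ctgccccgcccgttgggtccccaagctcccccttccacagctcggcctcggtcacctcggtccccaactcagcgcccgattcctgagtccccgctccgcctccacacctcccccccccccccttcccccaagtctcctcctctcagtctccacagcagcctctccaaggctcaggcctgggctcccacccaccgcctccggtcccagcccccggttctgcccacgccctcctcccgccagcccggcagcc
The Nab1 window held 3 matches to GCGNGGGCG, from -141 to -133, from -109 to -101 and from -38 to -30, and 1 match to TGACG as the reverse complement from -123 to -119. The window of Nab2 held no match to any of the motifs searched. GCGNGGGCG occurred in 4.7% of the 32851 windows. These windows are rich in G and C, which made up 80.8% of bases for Nab1 and 72.8% for Nab2.

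**Figure D2:**
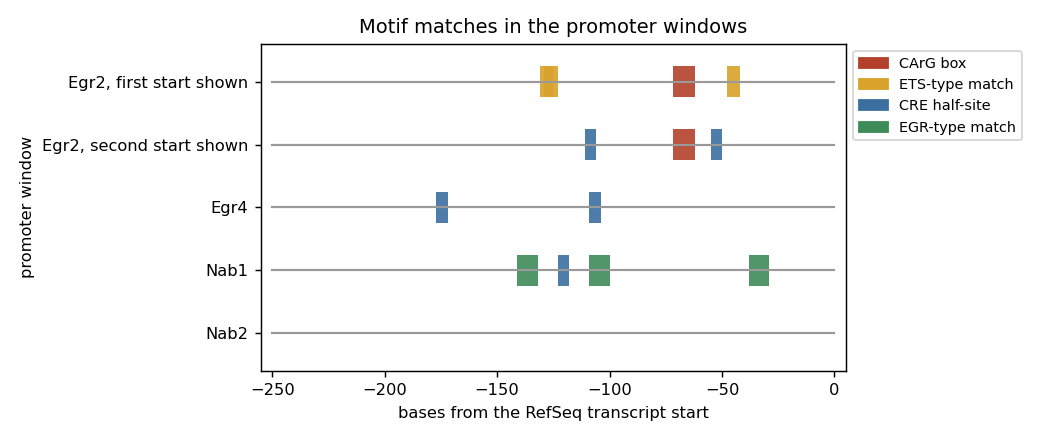
Matches to CArG boxes (red), ETS-type sequences (yellow), cyclic AMP response element half-sites (blue) and EGR-type sequences (green) by distance in bases from the transcript start (horizontal axis) in promoter windows of Egr2, Egr4, Nab1 and Nab2 (vertical axis). Of the windows drawn, those of Egr2 hold a CArG box each, and the 3 EGR-type matches lie in the window of Nab1.

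The plot of differences by level sets the members against all scored probe sets. The 5 scored genes had log2 differences of 2.997 for Egr3, 1.31 for Egr1, 0.57 for Egr2, 0.34 for Nab2 and -0.03 for Nab1, with a median of 0.57, against -0.0046 over all scored genes. The first 2 lay outside the range of their 500 neighbours in level, and the other 3 lay within it. The probe sets nearest to Egr1 in the plane of mean level and difference belonged to Tiparp, Gadd45b and Klf7, at distances of 0.26, 0.43 and 0.60 log2 units. Tiparp probe set 1452161_at had scaled intensities of 5471 with J147 and 2595 with vehicle, a fold of 2.11. Gadd45b probe set 1449773_s_at was 1.94-fold and Klf7 probe set 1419355_at 1.66-fold higher with J147. Egr3 had no close neighbour in this plane: the nearest, probe sets of Slc30a1, Hbegf and Cox7c, were 2.02, 2.03 and 2.05 log2 units away, and had folds of 2.09, 1.98 and 1.96. Likeness here rests on 2 arrays and says only that level and difference are close.

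**Figure D3:**
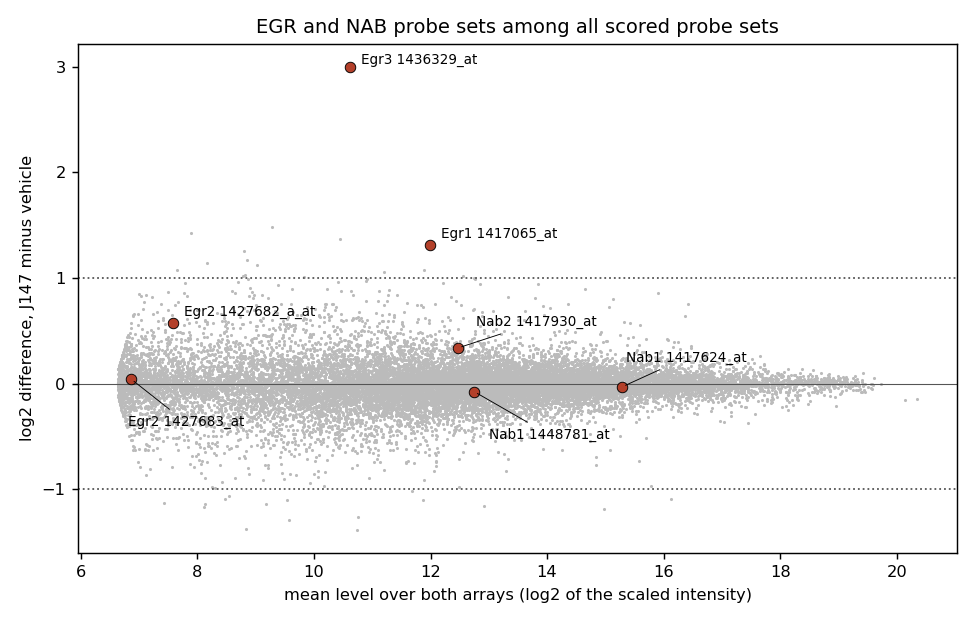
Log2 difference, J147 minus vehicle (vertical axis), against the mean log2 scaled intensity over both arrays (horizontal axis) for all 22545 scored probe sets (grey) and the 7 scored EGR and NAB probe sets (red), with dotted lines at 2-fold. Egr3 at 2.997 and Egr1 at 1.31 stand above the grey points at their levels, and the others lie among them.

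Among genes that act upstream of the EGR factors, none reached 1.5-fold by its brightest probe set, a limit that 0.556% of all scored genes passed upward and 0.81% downward. The list holds ERK pathway kinases, the ribosomal S6 kinases that ERK activates, SRF, its ternary complex and MRTF partners, and Creb1. The log2 differences of the 12 scored members ran from -0.29 to 0.24 with a median of -0.03. The largest were those of Mrtfa, an actin-regulated coactivator of SRF, with scaled intensities of 5645 with J147 and 6920 with vehicle, and of Creb1, with 11918 with J147 and 14522 with vehicle at probe set 1452901_at. Their log2 differences were -0.29 and -0.29. A dimmer probe set of the kinase gene Braf, 1456505_at, differed by more, with 2227 with J147 and 3305 with vehicle, whereas the brightest Braf probe set had a log2 difference of 0.09. The arrays measure mRNA and give no information on phosphorylation, through which these proteins are controlled.

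The mRNAs of cofactors that act with EGR and NAB proteins on chromatin differed by less than 1.5-fold as well. Of 16 scored cofactors none differed by 1.5-fold, a limit that 0.556% of all scored genes passed upward and 0.81% downward. Among them were the NuRD subunits Chd4, Hdac1 and Mta2 and the acetyltransferases Ep300 and Crebbp. The median log2 difference of the 16 was 0.03. The largest was that of Ep300, with scaled intensities of 8441 with J147 and 10474 with vehicle and a log2 difference of -0.31, followed by Mta1 at -0.13. Among 10 scored factors that bind related GC-rich sequences, such as Sp1, Sp3 and Klf10, 1 passed 1.5-fold upward and 0 passed it downward, against 0.556% and 0.81% of all scored genes. This was Klf16, a Krüppel-like repressor, with 7305 with J147 and 4252 with vehicle, a fold of 1.72. Wt1, whose zinc fingers are close to those of the EGR proteins, was listed at the floor with J147 and with vehicle.

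Most reported direct targets of EGR proteins differed by less than 1.5-fold at 1 h. Of 27 targets in the annotation, 20 were scored, none was at least 2-fold different, 1 was at least 1.5-fold higher and 1 at least 1.5-fold lower. At this limit 0.556% of all scored genes were higher and 0.81% were lower. Of the 20 scored targets 11 had a log2 difference above 0, beside 3932 of all 10611 scored genes. Their median was 0.05, against -0.0046 over all scored genes, the value that identical deposited intensities give after scaling. Gadd45b, a stress and growth arrest gene, had 15960 with J147 and 9886 with vehicle at its brightest probe set, a fold of 1.61. Its relative Gadd45a had 4829 with J147 and 7565 with vehicle, 1.57-fold lower with J147. A dimmer probe set of the prostaglandin synthase gene Ptges, 1439747_at, had 651 with J147 and 348 with vehicle. The brightest Ptges probe set, 1449450_at, had 2834 with J147 and 2676 with vehicle, a fold of 1.06. Of some members chosen with their values known, the inhibitor of differentiation Id3 had a log2 difference of 0.40 and the tissue factor gene F3 0.30. The cyclin gene Ccnd1 had 0.20 at its brightest probe set, and 0.42 and 0.44 at its others. The growth factor gene Pdgfa had -0.09, and the membrane metalloproteinase gene Mmp14 had -0.24, -0.26 and -0.42 at its 3 probe sets. For 6 of the 27, among them Arc, Tnf and Fasl, every probe set lay at the lowest value in both conditions.

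For the myelin genes that Egr2 controls in Schwann cells few values were above the floor. Of 5 in the annotation, Mbp, Gjb1 and Mag were at the lowest value on both arrays by every probe set. Pmp22, a peripheral myelin gene that other cells also express, had a fold of 0.949, and the Schwann cell and oligodendrocyte factor Sox10 had the same deposited value on both arrays.

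Other immediate early transcription factors had smaller differences than Egr3 and Egr1. Of 7 scored AP-1 factors none was 2-fold different and 2 were at least 1.5-fold higher with J147, against 0.556% of all scored genes. Fosl1 had 27385 with J147 and 16196 with vehicle, a fold of 1.69, and Maff had 1920 with J147 and 1048 with vehicle, a fold of 1.83. Of the 7 AP-1 factors, 4 had a log2 difference above 0, beside 3932 of all 10611 scored genes. Fos lay near the lowest value, with 111 with J147 and 125 with vehicle. Jun had a log2 difference of -0.27 and Junb 0.45. Of 4 scored NR4A and CSRNP factors 2 were at least 1.5-fold higher with J147, against 0.556% of all scored genes. These were Csrnp1 with a fold of 1.95 and Nr4a1 with 1.72. Fosb, Atf3, Nr4a3 and Csrnp3 were listed at the floor on both arrays, where no change could be seen. The medians were 0.03 for AP-1 factors and 0.41 for NR4A and CSRNP factors, beside 0.57 for the EGR and NAB genes. The difference between these lists was not tested. The 10 scored housekeeping genes had log2 differences from -0.13, for B2m, to 0.05, and Tbp had -0.08.

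**Figure D4:**
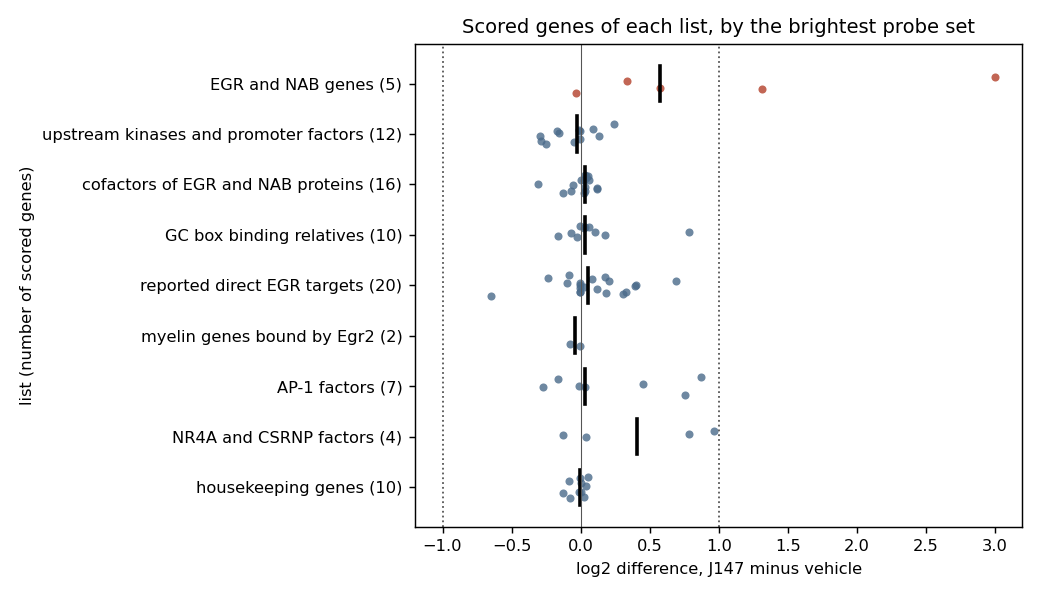
Scored genes (points) by the log2 difference of their brightest probe set, J147 minus vehicle (horizontal axis), in the EGR and NAB genes and 8 related lists (vertical axis, with the count of scored genes), where a black bar gives the median of each list and dotted lines at 2-fold. Egr3 and Egr1 are the only points beyond the dotted lines, and the upstream, cofactor and housekeeping lists lie within 1.5-fold of 0.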

How the data were processed

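Expression in HT22 cells was read from 2 Affymetrix mouse genome arrays, 1 for J147 and 1 for vehicle. The authors deposited log2 intensities, summarised in R by gcRMA, for 45101 probe sets, 64 of them controls. Affymetrix Expression Console 1.0 is named as well in the processing notes of the submitters, and the sources used here do not give the gcRMA version. The scaling to a median of 100 and the intensity filter of the study's methods were not found in the deposited values, so both were applied for this report. Such scaling cannot correct a difference between cultures, and the gcRMA floor hides changes in probe sets that lie at it.

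The platform annotation gave a single symbol for 34945 of 45037 probe sets, several for 932 and none for 9160. Symbols were updated through Entrez numbers to RefSeq genes of GRCm38.p6. A gene was read from its brightest scored probe set. The genes, lists and markers were chosen with earlier results of these data known. From each list, up to 4 genes at least 1.5-fold different were named, or else the 2 largest differences, and for members at least 1.5-fold different the 3 nearest probe sets in level and difference. Alternatives were a pseudocount of 50, quantile normalization, subtraction of a lowess curve (span 0.3), no scaling, other filters and probe set choices, and other numbers of neighbours. The software was Python 3.11.15 with scipy 1.17.1, numpy 2.4.6, pandas 2.3.3, statsmodels 0.14.6 and matplotlib 3.10.9. Tested on simulated data from the 22545 scored probe sets, the 2-fold limit was passed by 1 of 50 raised by 1.5-fold, 49 of 50 raised by 2.5-fold, 50 of 50 raised by 4-fold and 48 of 50 lowered by 2.5-fold, which checks the calculation only. Precision is limited by the number of arrays.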

Additional observations from a re-analysis of the deposited data

How the results depend on the processing

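Alternatives gave 137 values, of which 125 were close to those reported and 12 moved, where close means within 1 SD of the 500 neighbours for a member's difference, within 1.5 times for counts and shares, and within 0.05 log2 units for list medians. No value at least 1.5-fold changed its sign. Egr3 probe set 1436329_at ranged from 7.41-fold to 8.15-fold, Egr1 from 2.46-fold to 2.53-fold, Egr2 probe set 1427682_a_at from 1.37-fold to 1.49-fold and Nab2 from 1.26-fold to 1.28-fold. The median of the EGR and NAB genes, 0.57, was 0.45 with the pseudocount of 50, 0.45 with no filter on intensity, 0.83 with a mean scaled intensity above 200, 0.34 with probe sets averaged within a gene and 0.34 without suffixed probe sets, since few genes enter and the Egr2 value sets it. Over the whole table, the 17 probe sets at least 2-fold higher became 11 with the pseudocount of 50, and at 1.5-fold the counts were 193 higher and 176 lower, by construction. The median of reported EGR targets, 0.05, was -0.0046 with no filter and 0.12 without identical values, which was added after seeing the data. That of AP-1 factors, 0.03, was 0.24 above 200, and that of NR4A and CSRNP factors, 0.41, was 0.02 with no filter. No paired analysis was possible because there is 1 array per condition. For the same reason no array could be left out. Signal over background limits Egr2, Egr4, Egr3 probe set 1421486_at and Nab1 probe set 1438819_at.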
